A study of Mus musculus with 16 samples.

Results

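Phosphoinositide kinases and phosphatases add and remove the phosphate groups on the inositol ring of phosphatidylinositol, a lipid of the cytoplasmic face of membranes. The 38 genes described here were taken by symbol from the gene table, out of 55573 gene records. They are the PI4-kinases with the subunits of the PI4KA complex, the PIP kinases, the PIKfyve complex, class I to III PI3-kinases, phosphoinositide phosphatases and Plcg2, a phospholipase C. All 38 passed the low-count filter, which kept 13107 genes for testing, and all are protein coding in GENCODE M21 on GRCm38 (mm10), the source of every gene coordinate below.

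RNA was sequenced from RAW264.7, a mouse macrophage-like cell line, in 16 libraries that fall into 4 groups of 4. Parental cells carry no construct that the labels name. The knockdown (KD) groups are labelled CDC50A KD, ATP11A/C KD and ORP5/8 KD; "sh" opens their library names and is not spelled out. ORP5 and ORP8 are lipid transfer proteins, ATP11A is a flippase that returns phosphatidylserine to the inner leaflet, and CDC50A, encoded by Tmem30a, is the subunit that such flippases need. No non-targeting control was analysed here, so a difference from Parental cannot be told apart from an effect of carrying a construct. All comparisons with Parental share its 4 libraries. The labels do not say that replicates were separate cultures or clones. A p-value here reflects how much libraries vary within groups, estimated jointly over all 16 libraries, and that variation may be technical.

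As background, phosphatidylinositol 4-phosphate (PI4P) is made at the plasma membrane by PI4KA and at the Golgi and endosomes by the other PI4-kinases. ORP5 and ORP8 carry it to the endoplasmic reticulum in exchange for phosphatidylserine, and Sac1 removes its phosphate there, which keeps the exchange running. Further phosphorylation gives PI(4,5)P2 and PIP3, which drive actin assembly and signalling at the phagocytic cup, while PI3P made by VPS34 marks endosomes and closed phagosomes and is needed for LC3-associated phagocytosis.

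Library totals ran from 24020891 to 41543050 counts. Levels are given as CPM (library-scaled counts) after TMM scaling, and a member had at least 114 counts in every library. Osbpl8 (ORP8) fell from 337 CPM in Parental to 99.1 in ORP5/8 KD, but also to 127 in ATP11A/C KD and 116 with CDC50A KD, so it does not mark ORP5/8 KD alone. Group names below are those of the labels, and "flippase groups" means ATP11A/C KD and CDC50A KD by label only. Osbpl5 (ORP5) was under the low-count filter. It held 28 counts over the 4 ORP5/8 KD libraries against 18 in Parental (exact 2-sided permutation p = 0.657), 29 in ATP11A/C KD and 19 with CDC50A KD, so it was not lower in the group labelled for it. Atp11a fell from 61.4 to 21.4 CPM in ATP11A/C KD, to 43.1 in CDC50A KD and to 53.3 in ORP5/8 KD. Tmem30a was 162 CPM in Parental, 127 in CDC50A KD, 130 in ORP5/8 KD and 142 in ATP11A/C KD, so it does not mark CDC50A KD alone. Of 8 macrophage markers 7 averaged at least 1 CPM, all but Mertk. Their summed level was 11105 to 11842 CPM in Parental against 7110 to 7532, 5911 to 6289 and 6906 to 7209 in ORP5/8, ATP11A/C and CDC50A KD. Most of that fall was Lyz2, at 6827 to 7450 CPM in Parental and 2472 to 4291 over the KD libraries. Cd14 (601 to 920 against 1004 to 1096 CPM) and Itgam (108 to 149 against 169 to 188) were lower in every KD library. So was Cd68 (669 to 831 against 863 to 980 CPM). Fcgr1 was lower in ORP5/8 KD (76.3 to 82.1 against 153 to 172 CPM) and ATP11A/C KD (116 to 124). Adgre1 was higher in every KD library (76.8 to 112 against 65.6 to 70.5 CPM). Csf1r was higher in CDC50A KD (2091 to 2188 against 1848 to 1916) and lower in ORP5/8 KD (1494 to 1576). Pairs of libraries within a group differed by a chi-square per degree of freedom of 4.75 to 25.1, and by 44.0 for ATP11A/C KD 1 and 2, so calls that turn on those libraries are given beside the results. Mitochondrial transcripts took 1.08 to 1.26% of counts in Parental and 1.36 to 1.78% across the KD libraries. These values move with the KD comparisons below, and their part in those results was not tested. All 4 mast and all 5 epithelial markers were at 0, summed fibroblast and neutrophil markers stayed under 1 CPM in every library, and lymphocyte and dendritic markers summed to 1.97 to 4.71 and 1.62 to 3.81 CPM, mostly Lck and Zbtb46. In bulk RNA, fewer cells of a type and less RNA per cell cannot be told apart.

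More of these genes were lower than higher in each KD group against Parental, mostly by less than 2-fold. A gene is called higher or lower at an adjusted p under 0.05 in edgeR's quasi-likelihood test with Benjamini-Hochberg adjustment over all 13107 genes, and only called genes are said below to rise or fall. In ORP5/8 KD 8 members rose and 18 fell, against 22.0% of all tested genes called higher and 24.3% called lower. In ATP11A/C KD 5 rose and 21 fell (all genes 17.4% and 20.2%), and in CDC50A KD 6 rose and 20 fell (24.3% and 26.1%). The falling members were thus 47.4%, 55.3% and 52.6% of the 38, and the rising ones 21.1%, 13.2% and 15.8%. The median log2 fold change of the members was -0.09, -0.15 and -0.13, where the median over all genes was 0.02, 0.01 and -0.01. Mtm1 was the only member called with a change of at least 2-fold, in ATP11A/C KD and CDC50A KD, whereas 6.54%, 4.98% and 6.41% of all genes were in the 3 comparisons. Under upper-quartile scaling the members split 8 higher and 13 lower in ORP5/8 KD, while the share of higher genes among all calls there moved from 47.5% to 63.3%.

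**Figure D1:**
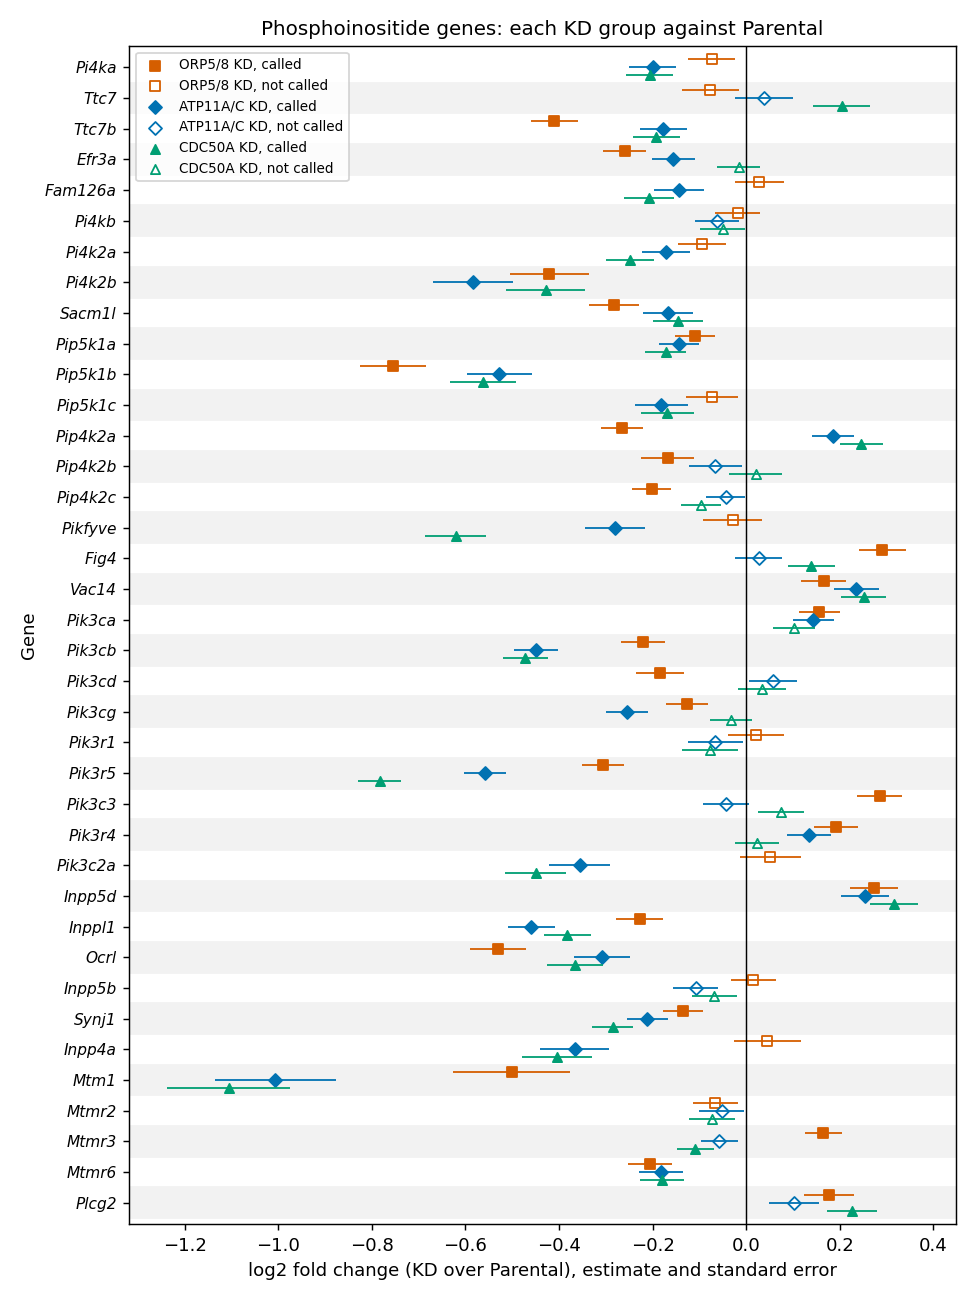
Log2 fold change of each of the 38 genes (rows, by role) in ORP5/8, ATP11A/C and CDC50A KD against Parental, with bars of 1 standard error, from 4 libraries a group. Filled symbols are called at an adjusted p under 0.05: most lie left of 0, Mtm1 reaches -1.11, and no member is above 0.32.

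Upstream sequences of 4 of the genes described below are shown first, as examples of members that move in 1 direction in all 3 KD groups. Mtm1, Pik3r5 and Pi4k2b fell and Inpp5d rose. Other members did so too, Ocrl and Inppl1 among them, and no rule picked these 4. Each is the 240 bases that end 11 bases before a start site in RefSeq (GRCm38.p6), on the plus strand, at chrX:71210517-71210756 for Mtm1 (1 of its 3 windows), chr11:68431875-68432114 for Pik3r5, chr5:52741324-52741563 for Pi4k2b and chr1:87620062-87620301 for Inpp5d. Capitals mark matches, on either strand and overlaps included, to the AP-1 motif TGAGTCA, the GC box GGGCGG or the PU.1 motif GAGGAAGT.
Mtm1: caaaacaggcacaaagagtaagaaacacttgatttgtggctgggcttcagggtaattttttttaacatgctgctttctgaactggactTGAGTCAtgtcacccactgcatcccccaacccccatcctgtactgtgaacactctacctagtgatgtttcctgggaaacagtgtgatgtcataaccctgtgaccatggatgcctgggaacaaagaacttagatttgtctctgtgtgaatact
Pik3r5: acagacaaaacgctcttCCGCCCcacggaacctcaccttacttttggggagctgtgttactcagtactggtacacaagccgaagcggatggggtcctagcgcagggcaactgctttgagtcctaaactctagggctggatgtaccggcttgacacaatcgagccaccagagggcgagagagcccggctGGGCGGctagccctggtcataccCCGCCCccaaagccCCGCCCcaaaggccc
Pi4k2b: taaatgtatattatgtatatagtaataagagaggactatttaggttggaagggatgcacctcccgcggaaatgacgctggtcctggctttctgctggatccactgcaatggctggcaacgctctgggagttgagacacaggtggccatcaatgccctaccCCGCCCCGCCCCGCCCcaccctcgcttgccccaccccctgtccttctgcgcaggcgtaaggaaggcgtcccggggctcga
Inpp5d: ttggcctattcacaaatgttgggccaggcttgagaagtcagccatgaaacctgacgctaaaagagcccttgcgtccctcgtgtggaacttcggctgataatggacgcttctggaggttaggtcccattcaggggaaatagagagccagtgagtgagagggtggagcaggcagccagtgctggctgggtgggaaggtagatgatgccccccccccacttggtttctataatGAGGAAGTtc
Mtm1 holds 1 AP-1 match and no GC box, Pik3r5 4 GC boxes, Pi4k2b 3 GC boxes in 1 run, and Inpp5d 1 PU.1 match. Windows from 250 bases before to 50 after the start were at hand for 33 of the 38 genes, 47 windows in all. A GC box occurred in 32 of the 47 windows, against 35.7% of all 32851 windows. By gene, 27 of the 33 had a GC box in some window. The full set was not limited to genes that passed the low-count filter, as all members did. No excess among members is read from it. The PU.1 motif was found in Inpp5d and Pik3cg (3.2% of all windows), the AP-1 motif in Mtm1 and Pik3ca (5.2%), and the CLEAR motif TCACGTGA, bound by the lysosomal regulator TFEB, in Pip5k1a and Vac14 (0.974%). The interferon-stimulated response element (ISRE) was in none of the 33 genes and in 3.44% of all windows. These matches describe letters only and show no binding.

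PI4-kinases and the PI4KA complex come first, since they make the lipid that ORP5/8 carries. Pi4k2b, the type II PI4-kinase that moves between cytosol and membranes (ENSMUSG00000029186.12; chromosome 5, 52741574 to 52769340), fell in all 3 KD groups. Its Parental libraries held 24.4, 26.2, 26.4 and 24.3 CPM. ORP5/8 KD had 20.2, 18.8, 16.7 and 20.0 CPM, ATP11A/C KD 15.7, 15.6, 18.3 and 18.0, and CDC50A KD 17.0, 22.7, 17.7 and 18.3. Every KD library lay below every Parental library, although CDC50A KD 2 came close. Log2 fold changes came to -0.42 (SE 0.08, adjusted p = 0.000321), -0.58 (SE 0.09, 1.17e-05) and -0.43 (SE 0.09, 0.000279). No pair of KD groups was called different for Pi4k2b, with 95% intervals of -0.02 to 0.35 for ORP5/8 against ATP11A/C KD and -0.18 to 0.19 against CDC50A KD.

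The other PI4-kinases changed less. Pi4ka, the plasma membrane enzyme, was 161 ± 5.31 CPM (SD, n = 4) in Parental and fell to 140 ± 10.1 in ATP11A/C KD and 140 ± 7.61 with CDC50A KD (log2 fold changes -0.20 and -0.21). In the ORP5/8 group it stood at 153 ± 3.02 CPM and was not called (-0.07, interval -0.18 to 0.03). Pi4k2a, the palmitoylated type II enzyme of endosomes and Golgi, fell by 0.17 and 0.25 on the log2 scale in ATP11A/C and CDC50A KD, the former call ending without ATP11A/C KD 2 (adjusted p = 0.0527). Pi4kb, the Golgi enzyme, was called in no KD group (-0.02, -0.06 and -0.05). Pi4kb shares 6.55% of its exonic length with Zfp687 on the opposite strand. The library kit and the deposited table are named as stranded, while the strand setting given to RSEM is not given in the sources used here.

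The subunits that hold PI4KA at the plasma membrane did not move as 1 unit. Ttc7b, a scaffold subunit, fell in all 3 groups, from 39.1 ± 1.95 CPM to 29.4 ± 1.72 (ORP5/8 KD), 34.6 ± 1.04 (ATP11A/C) and 34.2 ± 0.556 (CDC50A; log2 fold changes -0.41, -0.18 and -0.19). The ATP11A/C KD call ended without Parental 2 (adjusted p = 0.0625). Its paralog Ttc7 rose in CDC50A KD alone among the calls (112 ± 4.16 to 129 ± 5.34 CPM, 0.20), and ORP5/8 KD lay below CDC50A KD for Ttc7 by -0.28 (adjusted p = 0.000618). Efr3a, the palmitoylated anchor, fell in ORP5/8 KD (115 ± 4.42 to 96.1 ± 4.66 CPM, -0.26) and in ATP11A/C KD (-0.16, adjusted p = 0.0655 without ATP11A/C KD 3), and stood at 114 ± 2.93 CPM in CDC50A KD. Efr3a was lower in ORP5/8 than in CDC50A KD by -0.24 (adjusted p = 0.00014). Fam126a, the hyccin subunit, fell in CDC50A KD (45.6 ± 1.71 to 39.5 ± 1.42 CPM, -0.21), and its fall of 0.14 in ATP11A/C KD ended in 6 of 8 fits that left out 1 library (Parental 1, 2, 3 or 4, or ATP11A/C KD 1 or 3; adjusted p 0.0571 to 0.124), under upper-quartile scaling (0.0916), with no low-count filter (0.0604) and in a fit of the 2 groups alone (0.0653). Fam126a in ORP5/8 KD was at 46.5 ± 2.45 CPM, above both other KD groups (0.17 and 0.24, adjusted p = 0.0133 and 0.000757). Of the 5 genes of the complex, 4 fell in ATP11A/C KD, 3 fell in CDC50A KD while Ttc7 rose, and 2 fell in ORP5/8 KD, where 20.2%, 26.1% and 24.3% of all genes did.

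Sacm1l encodes Sac1, the phosphatase of the endoplasmic reticulum that hydrolyses PI4P delivered by ORP5/8. It fell in all 3 KD groups and had its lowest mean in ORP5/8 KD. Parental libraries held 82.8, 83.3, 84.3 and 83.7 CPM, ORP5/8 KD 73.4, 70.0, 62.6 and 68.9, ATP11A/C KD 66.6, 78.4, 73.7 and 79.1, and CDC50A KD 72.2, 78.0, 77.2 and 74.9. No KD library reached the Parental range, and the KD ranges overlapped each other. On the log2 scale the changes were -0.28 (SE 0.05, adjusted p = 0.000177), -0.17 (0.0173) and -0.15 (0.0283). The ATP11A/C KD call ended without ATP11A/C KD 1 or 3 (adjusted p = 0.065 and 0.0565), and the CDC50A KD call without any 1 of the Parental libraries or CDC50A KD 1 (0.0553 to 0.0662). Between KD groups, ORP5/8 was called below CDC50A KD (-0.14, adjusted p = 0.0346), a call lost without ORP5/8 KD 2, 3 or 4 or CDC50A KD 2, 3 or 4 (0.0537 to 0.178), and under upper-quartile scaling (-0.07, 0.295). It was not called against ATP11A/C KD (interval -0.23 to 0.00), except without ATP11A/C KD 1 (-0.16, 0.0114). Slc6a20b on the opposite strand covers 48.2% of the exonic length of Sacm1l, and was itself at no more than 0.0547 CPM in any library.

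The type I PIP kinases make PI(4,5)P2 from PI4P, and Pip5k1b fell furthest among them. Pip5k1b (ENSMUSG00000024867.14; chromosome 19, 24294794 to 24555872, minus strand) held 36.4, 37.1, 35.5 and 38.6 CPM in Parental. The 4 libraries of ORP5/8 KD lay at 21.5, 21.2, 22.9 and 22.0 CPM, those of ATP11A/C KD at 23.9, 25.7, 25.6 and 27.4, and those of CDC50A KD at 24.6, 21.6, 23.98 and 29.4. All 12 KD libraries were below all Parental libraries, and ORP5/8 KD lay below every ATP11A/C KD library. Log2 fold changes were -0.76 (SE 0.07, adjusted p = 1.46e-08), -0.53 (SE 0.07, 3.81e-06) and -0.56 (SE 0.07, 1.41e-06), so the ORP5/8 KD level was 59.3% of Parental. The ORP5/8 level of Pip5k1b was below the ATP11A/C level by -0.23 (adjusted p = 0.0149) and below the CDC50A level by -0.19 (0.0267). The former call ended without ATP11A/C KD 4 (0.0615) and the latter without ORP5/8 KD 1 or 2 or CDC50A KD 1 or 4 (0.0569 to 0.246), and both ended under upper-quartile scaling (0.059 and 0.156).

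Pip5k1c and Pip5k1a, the more abundant type I enzymes, fell less. Pip5k1c was 187 ± 6.86 CPM in Parental, 178 ± 4.92 in ORP5/8 KD (not called), 165 ± 18.1 in ATP11A/C KD and 166 ± 3.29 with CDC50A KD (-0.18 and -0.17). Those calls ended without Parental 1 in both (adjusted p = 0.0651 and 0.0644) and without ATP11A/C KD 2 or 4 (0.0792 and 0.0753). Pip5k1a fell by 0.17 on the log2 scale in CDC50A KD (adjusted p = 0.00235) and by 0.14 in ATP11A/C KD, the latter call ending without Parental 1 or ATP11A/C KD 2 (0.0626 and 0.0558). Its call in ORP5/8 KD (-0.11, adjusted p = 0.0418) ended whichever of the 8 libraries was left out (0.0545 to 0.177) and under upper-quartile scaling (-0.04, 0.518). Per kilobase of exonic length, Pip5k1b made up 15.2 ± 0.424% of the summed type I level in Parental and 10.1 ± 0.304% in ORP5/8 KD, with 12.3 ± 1.19% and 11.9 ± 1.28% in ATP11A/C and CDC50A KD. No KD library reached the lowest Parental share of 14.7%.

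Type II PIP kinases phosphorylate PI5P and restrain the type I enzymes, and Pip4k2a separated ORP5/8 KD from the flippase groups. Pip4k2a (ENSMUSG00000026737.12; chromosome 2, 18842255 to 18998126, minus strand) held 163, 156, 154 and 156 CPM in Parental. It was 134, 131, 128 and 129 CPM in ORP5/8 KD, 176, 192, 168 and 178 with ATP11A/C KD, and 186, 199, 188 and 173 with CDC50A KD. Parental lay between the groups without any overlap, with ORP5/8 KD below it and the other 2 KD groups above it. Log2 fold changes stood at -0.27 (SE 0.05, adjusted p = 6.22e-05), 0.19 (SE 0.05, 0.00276) and 0.25 (SE 0.05, 0.000132). The direct differences were -0.45 for ORP5/8 against ATP11A/C KD (adjusted p = 7.23e-08) and -0.51 against CDC50A KD (7.15e-09). Pip4k2c fell in ORP5/8 KD (62.9 ± 1.98 to 54.7 ± 0.667 CPM, -0.20), as did Pip4k2b (151 ± 2.88 to 134 ± 2.64, -0.17), while neither was called in ATP11A/C KD (-0.04 and -0.07) or CDC50A KD (-0.10 and 0.02). Leaving out ORP5/8 KD 1 or Parental 1 or 2 ended the Pip4k2b call (adjusted p 0.0553 to 0.0733), as did upper-quartile scaling (-0.09, 0.154). Pip4k2c was called in CDC50A KD without CDC50A KD 3 or 4 (adjusted p = 0.0342 and 0.0319). All 3 type II genes were called lower in ORP5/8 KD than in Parental, where 24.3% of all genes were. Between KD groups, Pip4k2b was lower in ORP5/8 than in CDC50A KD (-0.19, adjusted p = 0.00722; -0.12 and 0.0651 under upper-quartile scaling). It was not called against ATP11A/C KD (interval -0.22 to 0.02), except without ATP11A/C KD 2 (-0.17, 0.00571).

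**Figure D2:**
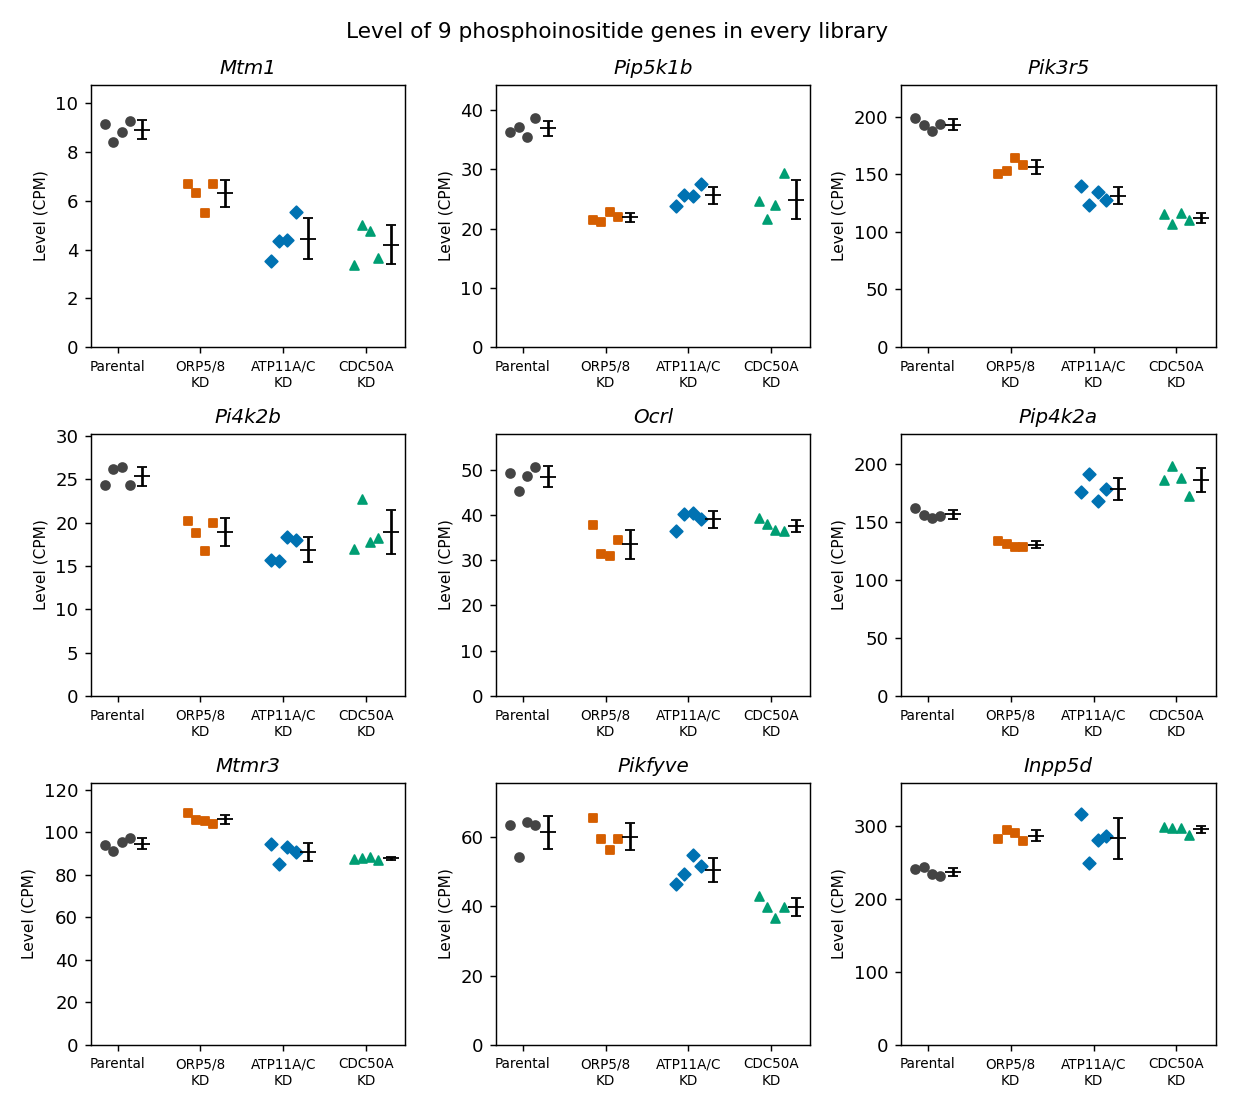
Level in CPM (vertical axes from 0) of 9 genes in each of the 16 libraries, with the mean and SD of 4 libraries to the right of the points. Pip4k2a splits below and above Parental by KD group, and Mtm1, Pip5k1b, Pik3r5, Pi4k2b and Ocrl lie below Parental in every KD library.

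PIKfyve makes PI(3,5)P2 on endosomes and lysosomes, in a complex with the scaffold Vac14 and the phosphatase Fig4. Pikfyve (ENSMUSG00000025949.16; chromosome 1, 65186683 to 65278695) is given by library, as chosen after its values were seen. It held 63.5, 54.4, 64.3 and 63.6 CPM in Parental, 65.4, 59.4, 56.3 and 59.6 in ORP5/8 KD, 46.5, 49.3, 54.9 and 51.5 in ATP11A/C KD, and 43.1, 39.9, 36.8 and 39.8 in CDC50A KD. CDC50A KD lay below all other libraries, ATP11A/C KD overlapped Parental through Parental 2, and ORP5/8 KD overlapped Parental. Its log2 fold changes were -0.03 (not called, interval -0.17 to 0.11), -0.28 (adjusted p = 0.00156) and -0.62 (SE 0.07, 1.12e-07). CDC50A KD was lower than ATP11A/C KD by -0.34 (adjusted p = 0.000774), and ORP5/8 KD was higher than both, by 0.25 (0.00336) and 0.59 (1.47e-07).

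Neither partner gene of Pikfyve fell in any KD group. Vac14 rose in all 3 KD groups, from 121 ± 6.13 CPM to 135 ± 6.88 (ORP5/8 KD), 142 ± 6.48 (ATP11A/C) and 144 ± 5.15 (CDC50A; log2 fold changes 0.17, 0.24 and 0.25), with no KD library below the highest Parental one. Fig4 rose in ORP5/8 KD from 36.8 ± 2.16 to 45.0 ± 1.17 CPM (0.29, adjusted p = 5.65e-05) and was higher there than in ATP11A/C KD (0.26, 0.000204) and CDC50A KD (0.15, 0.0123). In CDC50A KD Fig4 was called at 0.14 (adjusted p = 0.0262), a call lost without Parental 3 or 4 or CDC50A KD 2, 3 or 4 (0.0564 to 0.11), and in ATP11A/C KD it stood at 37.5 ± 1.9 CPM. In CDC50A KD, then, the kinase gene fell to 64.9% of Parental while Vac14 stood at 119% and Fig4 at 110%.

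Class I PI3-kinases make PIP3, and in macrophages the p110-gamma enzyme (Pik3cg) works with the regulatory subunit p101 (Pik3r5) downstream of G protein-coupled receptors. Pik3r5 (ENSMUSG00000020901.13; chromosome 11, 68432121 to 68497849) fell by a different amount in each KD group. Parental libraries held 199, 192, 188 and 194 CPM. ORP5/8 KD had 150, 153, 164 and 158 CPM, ATP11A/C KD 140, 123, 135 and 127, and CDC50A KD 115, 107, 117 and 110. The 4 groups did not overlap and stood in that order. The log2 fold changes were -0.31 (SE 0.04, adjusted p = 8.5e-06), -0.56 (SE 0.04, 2.17e-09) and -0.78 (SE 0.05, 1.05e-11). Each pair of KD groups differed: ORP5/8 over ATP11A/C KD by 0.25 (adjusted p = 0.000121), ORP5/8 over CDC50A KD by 0.48 (1.71e-08), and CDC50A below ATP11A/C KD by -0.23 (0.0011).

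Its catalytic partner did not follow Pik3r5 in CDC50A KD. Pik3cg was 146 ± 2.73 CPM in Parental and fell to 122 ± 6.59 in ATP11A/C KD (-0.25, adjusted p = 0.000123), while CDC50A KD, with the lowest Pik3r5, had 143 ± 7.13 CPM (-0.03, not called). CDC50A KD was above ATP11A/C KD for Pik3cg by 0.22 (adjusted p = 0.00124). In ORP5/8 KD Pik3cg was called at -0.13 (adjusted p = 0.0263), which was lost on leaving out ORP5/8 KD 2, 3 or 4 or Parental 1, 2 or 3 (0.055 to 0.124) and under upper-quartile scaling (0.34).

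Pik3cb, the p110-beta catalytic subunit, fell in all 3 KD groups, and is given by library as chosen after its values were seen. It held 55.6, 56.7, 58.1 and 59.5 CPM in Parental, 51.7, 49.8, 49.4 and 46.6 in ORP5/8 KD, 40.2, 42.03, 42.4 and 43.9 in ATP11A/C KD, and 43.5, 42.1, 42.1 and 38.2 in CDC50A KD. ORP5/8 KD lay between Parental and the flippase groups with no overlap. Changes on the log2 scale were -0.22 (adjusted p = 0.000643), -0.45 (1.53e-07) and -0.47 (7.37e-08), and ORP5/8 KD was above ATP11A/C KD by 0.23 and above CDC50A KD by 0.25 (0.000604 and 0.000147). Pik3cd, the leukocyte p110-delta subunit, fell in ORP5/8 KD (172 ± 4.7 to 152 ± 7.49 CPM, -0.18; adjusted p = 0.0749 under upper-quartile scaling) and was not called in the others (0.06 and 0.03). Pik3ca, p110-alpha, rose from 58.8 ± 2.56 to 65.6 ± 3.29 CPM in ORP5/8 KD and 65.0 ± 0.522 in ATP11A/C KD (0.16 and 0.14). Pik3ca with CDC50A KD was at 63.2 ± 2.12 CPM (0.10, adjusted p = 0.0598), passing the threshold without Parental 4 (0.0316) and under upper-quartile scaling (0.0489). Pik3r1, which encodes the p85-alpha regulatory subunit, was called in no group (0.02, -0.07 and -0.08).

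Levels of different genes were compared per kilobase of exonic length. On that scale Pik3cd made up 46.5 ± 0.729% of the summed class I catalytic level in Parental, Pik3cg 29.2 ± 0.699%, Pik3cb 13.5 ± 0.465% and Pik3ca 10.9 ± 0.371%. The Pik3cb share was 10.4 ± 0.692% in ATP11A/C KD and 9.96 ± 0.374% for CDC50A KD, with every library below the lowest Parental share of 12.9%. That in ORP5/8 KD was 12.7 ± 0.388% and overlapped Parental. The Pik3cd share lay above every Parental library in ATP11A/C KD (51.0 ± 2.11%), where the Pik3cg share was 25.8 ± 1.07% and below all Parental libraries. These shares are a description, with no test.

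**Figure D3:**
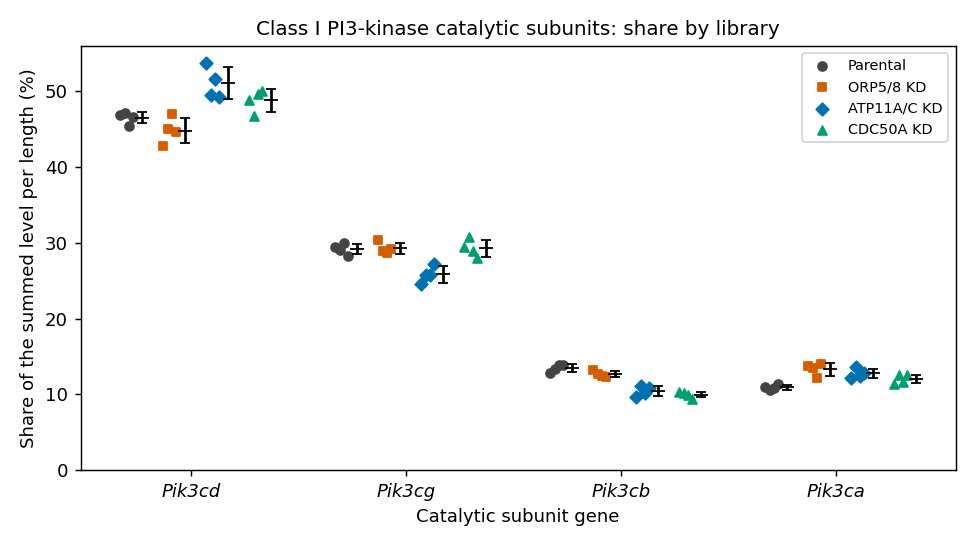
Share of each class I catalytic subunit gene in the summed level per kilobase of exonic length (percent, vertical axis from 0), 1 point per library, with mean and SD of 4 libraries. Pik3cd leads in every library, and Pik3cb is lower in ATP11A/C and CDC50A KD than in Parental.

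The class III kinase VPS34 (Pik3c3), which makes PI3P, and its regulatory subunit p150 (Pik3r4) rose together in ORP5/8 KD. Pik3c3 went from 36.1 ± 1.68 to 44.0 ± 0.525 CPM (0.29, adjusted p = 5.12e-05) and Pik3r4 from 35.3 ± 1.91 to 40.3 ± 0.925 CPM (0.19, 0.00211), with no overlap of libraries. Pik3c3 stood at 35.1 ± 1.81 CPM in ATP11A/C KD and 37.99 ± 1.48 with CDC50A KD (-0.04 and 0.07, not called), and ORP5/8 KD was above both (0.33 and 0.21, adjusted p = 1.23e-05 and 0.000874). Pik3r4 was called higher in ATP11A/C KD too (0.13, adjusted p = 0.0301), which ended without Parental 3 or 4 or ATP11A/C KD 1 or 4 (0.0604 to 0.12), and not in CDC50A KD (0.02).

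Pik3c2a, a class II PI3-kinase of clathrin-coated and recycling membranes, fell in the flippase groups and not in ORP5/8 KD. Its libraries, given as chosen after their values were seen, held 97.7, 101, 100 and 107 CPM in Parental, 116, 103, 96.7 and 105 in ORP5/8 KD, 67.8, 76.8, 83.5 and 89.0 in ATP11A/C KD, and 72.3, 76.7, 72.6 and 75.5 in CDC50A KD. ORP5/8 KD covered the Parental range, and the flippase groups lay below it. Against Parental the log2 fold change was 0.05 (not called, interval -0.09 to 0.19), -0.36 (adjusted p = 0.000191) and -0.45 (9.5e-06). Between KD groups, ORP5/8 exceeded ATP11A/C KD by 0.41 (3.64e-05) and CDC50A KD by 0.50 (1.73e-06). The antisense gene Gm44777 shares 12.3% of the exonic length of Pik3c2a and was at 0.643 to 2.55 CPM.

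The SHIP phosphatases remove the 5-phosphate of PIP3, and the 2 genes moved in opposite directions in every KD group. Inpp5d (SHIP1, the blood-cell enzyme; ENSMUSG00000026288.14; chromosome 1, 87620312 to 87720507), given by library as chosen after its values were seen, held 241, 244, 234 and 231 CPM in Parental. It was 282, 295, 291 and 280 CPM in ORP5/8 KD, 317, 250, 281 and 286 with ATP11A/C KD, and 299, 297, 298 and 288 with CDC50A KD. All KD libraries were above all Parental libraries, ATP11A/C KD 2 by the least. Its log2 fold changes of 0.27, 0.25 and 0.32 (adjusted p = 0.000166, 0.000487 and 3.36e-05) were not called different between KD groups (intervals -0.09 to 0.13 and -0.15 to 0.07 for ORP5/8 against ATP11A/C and CDC50A KD). Inppl1 (SHIP2, the widely expressed enzyme) fell from 162 ± 6.16 CPM to 139 ± 4.46, 118 ± 9.48 and 125 ± 4.52 (-0.23, -0.46 and -0.38; adjusted p = 0.000809, 2.49e-07 and 2.56e-06). For Inppl1, ORP5/8 KD lay above the ATP11A/C and CDC50A groups (0.23 and 0.15, adjusted p = 0.000934 and 0.0126). The antisense gene Gm10602 shares 18.8% of the exonic length of Inppl1 and was at no more than 1.05 CPM.

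Ocrl, the 5-phosphatase of PI(4,5)P2 on endosomes and closing phagosomes, fell most in ORP5/8 KD. Ocrl (ENSMUSG00000001173.15; chromosome X, 47912387 to 47965868) held 49.1, 45.2, 48.7 and 50.6 CPM in Parental. The ORP5/8 KD libraries had 37.6, 31.3, 30.8 and 34.4 CPM, those of ATP11A/C KD 36.4, 40.2, 40.5 and 39.2, and those of CDC50A KD 39.2, 37.96, 36.7 and 36.4. All KD libraries lay below all Parental ones, and ORP5/8 KD overlapped the other KD groups only through ORP5/8 KD 1. Ocrl changed by -0.53 (SE 0.06, adjusted p = 2.42e-07), -0.31 (SE 0.06, 0.000309) and -0.37 (SE 0.06, 3.72e-05). Between KD groups, ORP5/8 was below ATP11A/C KD by -0.22 (adjusted p = 0.00553), and below CDC50A KD by -0.16 (0.0247), the latter call ending without ORP5/8 KD 2 or 3 or CDC50A KD 1 or 2 (0.0684 to 0.11) and under upper-quartile scaling (0.18). Its paralog Inpp5b was called in no group (0.02, -0.11 and -0.07), but in CDC50A KD it passed without CDC50A KD 4 (-0.14, adjusted p = 0.013). Synj1, the synaptojanin of clathrin uncoating, fell in ATP11A/C KD (-0.21) and CDC50A KD (72.6 ± 2.16 to 59.6 ± 1.54 CPM, -0.28), and in ORP5/8 KD by 0.14, a call lost without Parental 1 or ORP5/8 KD 3 (adjusted p = 0.0988 and 0.124) and under upper-quartile scaling (0.24).

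Inpp4a removes the 4-phosphate of PI(3,4)P2 and leaves PI3P. It was a low-level gene that fell in the flippase groups: 10.7 ± 0.266 CPM in Parental and 11.01 ± 0.869 in ORP5/8 KD, against 8.27 ± 0.424 in ATP11A/C KD and 8.05 ± 0.369 with CDC50A KD (log2 fold changes 0.05, -0.37 and -0.40). The level in ORP5/8 KD was above both, by 0.41 and 0.45 (adjusted p = 0.000115 and 2.89e-05).

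Myotubularins remove the 3-phosphate of PI3P and PI(3,5)P2. Mtm1, the founding member (ENSMUSG00000031337.16; chromosome X, 71210767 to 71315691), had the largest fold change of the 38 genes. Parental libraries held 9.14, 8.40, 8.83 and 9.28 CPM and ORP5/8 KD 6.70, 6.33, 5.48 and 6.69. ATP11A/C KD had 3.51, 4.36, 4.39 and 5.55 CPM and CDC50A KD 3.37, 4.99, 4.75 and 3.64. All KD libraries were below all Parental ones, and ORP5/8 KD overlapped ATP11A/C KD through ATP11A/C KD 4 but not CDC50A KD. Mtm1 changed by -0.50 (SE 0.13, adjusted p = 0.00237), -1.01 (SE 0.13, 2.26e-06) and -1.11 (SE 0.13, 6.55e-07). The level in ORP5/8 KD exceeded that in ATP11A/C KD by 0.51 (adjusted p = 0.00379) and that in CDC50A KD by 0.60 (0.000607), while CDC50A and ATP11A/C KD were not called different (interval -0.40 to 0.20).

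Mtmr3, a myotubularin with a FYVE domain, had calls of opposite sign (ENSMUSG00000034354.17; chromosome 11, 4480868 to 4594863, minus strand). It held 94.1, 91.4, 95.3 and 97.5 CPM in Parental, 109, 106, 105 and 104 in ORP5/8 KD, 94.6, 84.9, 93.1 and 90.9 in ATP11A/C KD, and 87.4, 87.8, 88.6 and 87.2 in CDC50A KD. ORP5/8 KD lay above all other libraries and CDC50A KD below all Parental ones. Mtmr3 rose in ORP5/8 KD by 0.17 (SE 0.04, adjusted p = 0.00145), was not called in ATP11A/C KD (-0.06), and was called at -0.11 in CDC50A KD (0.0266). That last call ended without Parental 1, 3 or 4 (adjusted p = 0.064, 0.0578 and 0.0868) and without a low-count filter (0.13). Directly compared, ORP5/8 lay above ATP11A/C KD by 0.22 (9.84e-05) and above CDC50A KD by 0.27 (5.33e-06). Mtmr6 fell by a like amount in all 3 groups, from 74.1 ± 1.33 CPM to 64.2 ± 3.41, 65.3 ± 3.36 and 65.4 ± 2.83 (-0.21, -0.18 and -0.18). Mtmr2 was called in none (-0.07, -0.05 and -0.07), though without CDC50A KD 2 it was in CDC50A KD (-0.13, adjusted p = 0.0246).

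Plcg2, the phospholipase C that cleaves PI(4,5)P2 below Fc and lectin receptors, rose in ORP5/8 KD and CDC50A KD, from 184 ± 8.58 CPM to 208 ± 9.58 and 215 ± 9.03 (0.18 and 0.23, adjusted p = 0.00997 and 0.00138). In ATP11A/C KD it was at 197 ± 15.7 CPM (0.10, adjusted p = 0.139), and called without ATP11A/C KD 2 (0.16, 0.0131).

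ORP5/8 KD was then compared directly with the flippase groups. Against ATP11A/C KD 14 members were higher and 6 lower (all genes 18.2% and 20.4%), and against CDC50A KD 15 were higher and 10 lower (27.5% and 29.4%). The median log2 difference was 0.07 and 0.06, where that of all genes was 0.00 and -0.01. Under upper-quartile scaling the latter split was 20 higher and 5 lower. The share of higher genes among all calls in that comparison then moved from 48.4% to 60.7%. Pikfyve, Pik3c2a, Inpp4a, Mtm1 and Pik3r5 were higher in ORP5/8 KD than in both, by 0.25 to 0.60. Pip4k2a was lower than in both, by -0.45 and -0.51. These examples were not picked by a rule. Also called higher than in both were Pik3cb, Pik3c3, Mtmr3, Fig4, Inppl1, Fam126a and Pi4ka. Ttc7b, Pik3cd, Pip5k1b, Ocrl and Pip4k2c were also called lower than in both. Of the 20 calls against ATP11A/C KD, those of Pi4ka and Inpp5b (0.13 and 0.12, adjusted p = 0.0494 and 0.0481) each ended in 7 of 8 fits that left out 1 library, all but the fit without ATP11A/C KD 1 for Pi4ka (0.0589 to 0.167) and without ATP11A/C KD 3 for Inpp5b (0.0542 to 0.116). Those of Pik3cg without ORP5/8 KD 1 or 2 or ATP11A/C KD 2 (0.0521 to 0.0961) ended as well. Against CDC50A KD, the Pip4k2c call (-0.10, 0.0399) ended in 7 of 8 such fits, all but that without CDC50A KD 2 (0.0642 to 0.17), and the Pi4ka call (0.13, 0.028) without ORP5/8 KD 2 or CDC50A KD 4 (0.0598 and 0.0711).

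**Figure D4:**
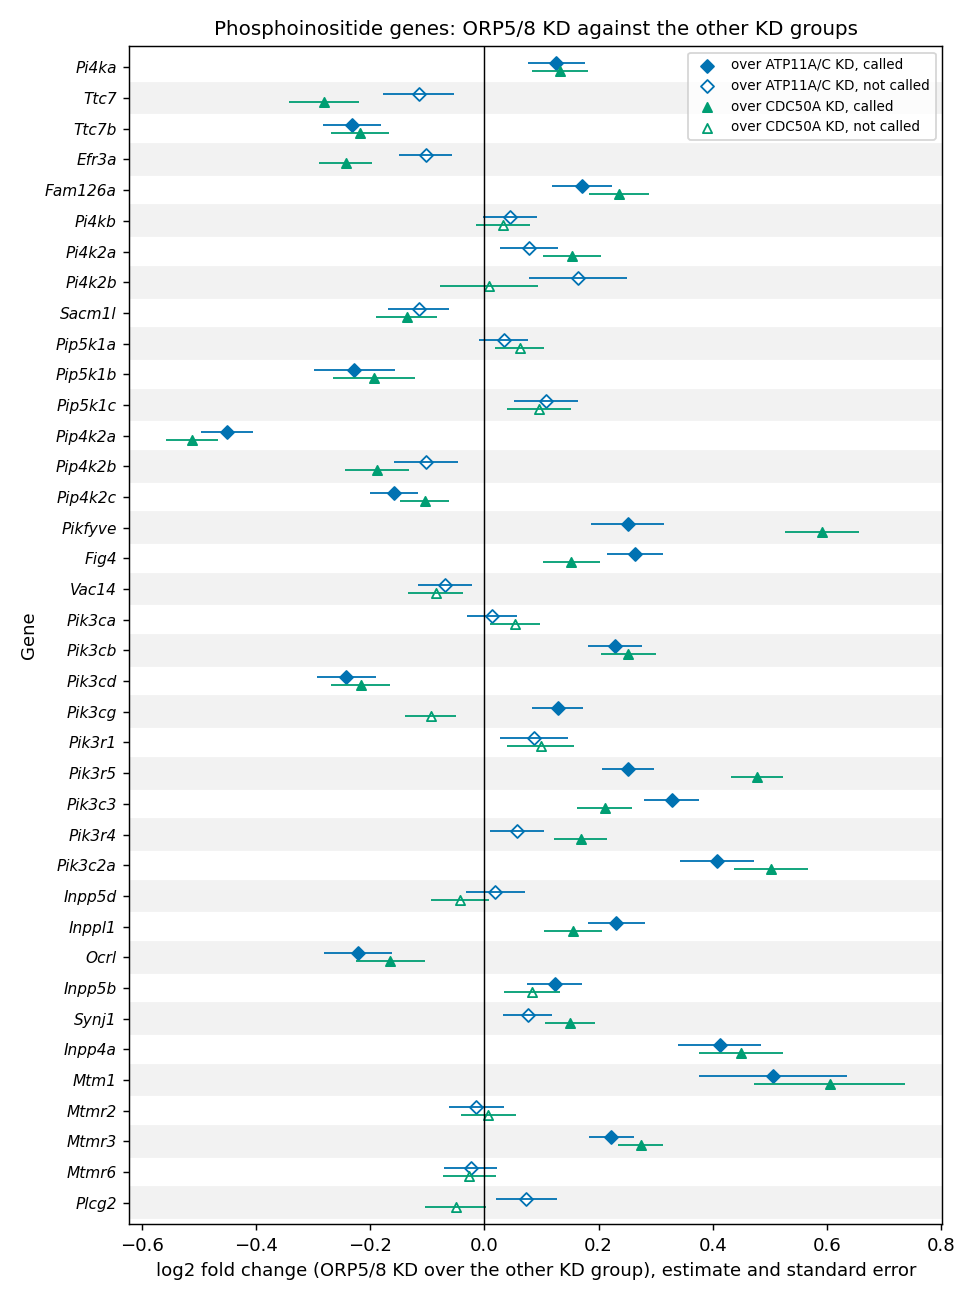
Log2 fold change of each of the 38 genes in ORP5/8 KD over ATP11A/C KD and over CDC50A KD, with bars of 1 standard error, from 4 libraries a group. Filled symbols are called at an adjusted p under 0.05, from Pip4k2a at -0.51 to Mtm1 at 0.60.

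CDC50A KD and ATP11A/C KD, which target a flippase subunit and a flippase, differed in 4 of the 38 genes. Efr3a and Pik3cg were higher and Pikfyve and Pik3r5 lower in CDC50A KD, against 13.5% of all genes called higher and 12.7% called lower, so 5.26% of members were called in each direction. Efr3a (0.14, adjusted p = 0.0292) lost its call without ATP11A/C KD 1 or 3 or CDC50A KD 1, 2 or 3 (0.0685 to 0.123) and under upper-quartile scaling (0.0604), which left 1 higher and 3 lower. The other 34 members were not called, which does not show that they were alike: the interval for Mtm1, for example, ran from -0.40 to 0.20. Without ATP11A/C KD 1, Ttc7 (0.22, adjusted p = 0.00551), Plcg2 (0.16, 0.032) and Pik3c2a (-0.17, 0.0274) were called as well, and without ATP11A/C KD 2 Pik3c3 was (0.15, 0.0316).

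In Parental cells the members spanned from 45.2 CPM per kilobase for Pip4k2a to 0.640 for Mtm1. Pip4k2a and Plcg2 (42.8) led with overlapping libraries, followed by Pik3r5 (34.8), Pip5k1c (32.6) and Inpp5d (31.2), the last 2 overlapping each other. Within roles, Pi4kb (23.8) was above Pi4ka (14.3) and Pi4k2a (13.4), which overlapped, and Pi4k2b (6.74) was lowest of the PI4-kinases. Mtmr2 (18.1) and Mtmr6 (16.7) led the myotubularins. Pikfyve (3.20) was below its partners Vac14 (17.3) and Fig4 (11.2), and Inpp4a (1.03) and Mtm1 stood apart at the low end with no overlap. Exonic length here is the union over all annotated transcripts, so a gene with long alternative exons is placed too low.

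**Figure D5:**
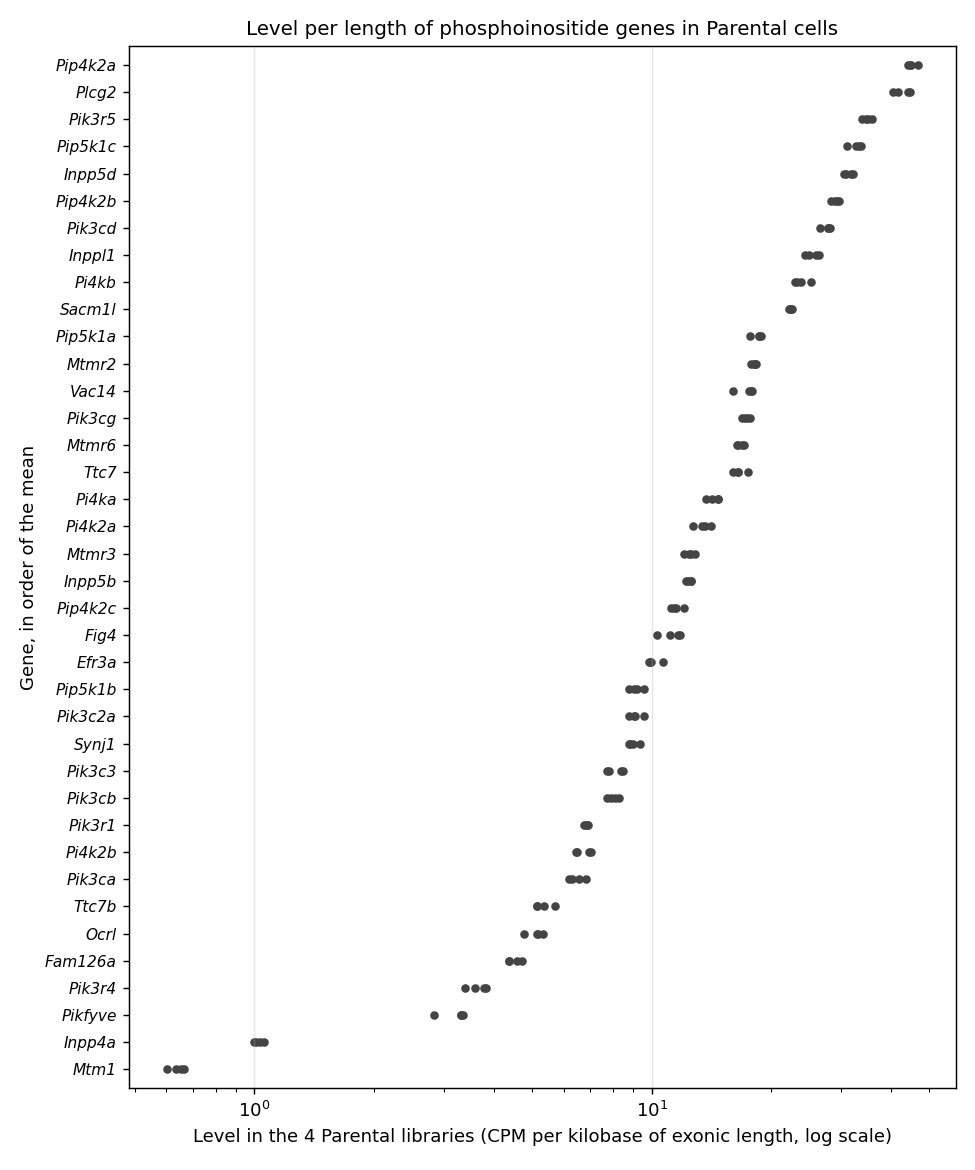
Level of the 38 genes in the 4 Parental libraries in CPM per kilobase of exonic length (log axis), in order of the mean, 1 point per library. Pip4k2a is highest at 45.2 and Mtm1 lowest at 0.640.

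A wider list of 94 other phosphoinositide genes, of which 79 were tested, was counted beside the members. It is not limited to metabolism. It includes 9 kinases downstream of PIP3, 11 partners of PI4P and PI4-kinases, and 13 PI3P and PI(3,5)P2 effectors. In this list 8 rose and 32 fell in ATP11A/C KD, and 8 rose and 35 fell in CDC50A KD. In ORP5/8 KD 18 rose and 24 fell (medians -0.10, -0.15 and -0.02 in that order of groups). Those that rose were 10.1%, 10.1% and 22.8% of the 79, against 17.4%, 24.3% and 22.0% of all genes, and those that fell 40.5%, 44.3% and 30.4%, against 20.2%, 26.1% and 24.3%. Among genes with at least 5 CPM, Efr3b, the paralog of the PI4KA anchor Efr3a, fell furthest in each, from 17.2 ± 0.754 CPM to 6.36 ± 0.725, 5.42 ± 0.405 and 4.89 ± 0.315 in the 3 groups in the order ORP5/8, ATP11A/C, CDC50A (-1.43, -1.66 and -1.82). Cds1, which makes the precursor CDP-diacylglycerol, fell from 16.3 ± 0.801 CPM to 13.0 ± 0.307, 9.99 ± 0.268 and 8.90 ± 1.05 (-0.33, -0.71 and -0.88). Pik3r3, the p55-gamma regulatory subunit, rose in ORP5/8 KD (8.13 ± 0.295 to 12.3 ± 0.713 CPM, 0.60), fell in CDC50A KD (5.22 ± 0.259, -0.64) and was not called in ATP11A/C KD (-0.02). Pik3ap1, a PI3-kinase adaptor, fell in ORP5/8 KD from 191 ± 5.27 to 121 ± 4.05 CPM (-0.66), and in the ATP11A/C and CDC50A groups to 141 ± 6.40 and 153 ± 3.52 (-0.44 and -0.32). Pitpnm2, a phosphatidylinositol transfer protein, rose from 17.3 ± 1.42 CPM to 19.9 ± 1.29, 29.4 ± 2.86 and 25.7 ± 1.21 for ORP5/8, ATP11A/C and CDC50A KD (log2 fold changes 0.19, 0.76 and 0.57). In the same order Wdfy1, a PI3P-binding protein, fell (-0.29, -0.49 and -0.41), as did Ncs1, a partner of PI4KB (-0.32, -0.36 and -0.60). Of the 13 tested PI3P and PI(3,5)P2 effectors, 4 fell and 1 rose in ORP5/8 KD, 7 fell and 0 rose in ATP11A/C KD, and 8 fell and 1 rose in CDC50A KD, where 24.3%, 20.2% and 26.1% of all genes fell. Of the 6 listed as other 5-phosphatases, 4 rose and 0 fell in ORP5/8 KD, where 22.0% of all genes rose. Inpp5j, 1 of the 6, averaged only 0.204 CPM in Parental and 0.592 in ORP5/8 KD. In ATP11A/C KD 2 of the 6 fell, where 20.2% of all genes did, and none was called in CDC50A KD. Of 5 tested other PI3-kinase subunits and adaptors, 4 rose and 1 fell in ORP5/8 KD (all genes 22.0% and 24.3%). Of 8 tested kinases downstream of PIP3, 1 rose and 6 fell in CDC50A KD (24.3% and 26.1%). The role groups given here were not picked by a rule.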

How the data were processed

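The members, gene lists and tests were chosen with earlier results of these data known. The tools named in the submitters' processing notes are Trim Galore 0.5.0, STAR 2.7.5a, Picard and RSEM, with the build mm10. The kit is stranded per the labels' protocols and the deposited table is named as stranded, but the gene model and the strand setting of RSEM are not given in the sources used here. The values deposited by the authors are RSEM expected counts per gene, and were rounded to whole counts for testing.

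The low-count filter was filterByExpr at a minimum count of 10, scaling was by TMM, and all 16 libraries entered the quasi-likelihood test of edgeR 4.0.16 in R 4.3.3, after a check on simulated data. Adjustment was by Benjamini-Hochberg in each comparison. The standard error is the absolute log2 fold change divided by the square root of F, and 95% intervals use 12 residual degrees of freedom. No gene set test was run, and lists were only counted.

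Values in every library are given for members called in 1 direction in all 3 KD groups with a log2 fold change of at least 0.5 in 1 of them, called in opposite directions, or called with one of at least 0.75. Pikfyve, Inpp5d, Pik3cb, Pik3c2a and Sacm1l were added after their values were seen. Of the wider list, up to 4 called genes per comparison with at least 5 CPM are named, except 1 that is not reported here. Alternatives were DESeq2 size factors, no filter, a replicate block, upper-quartile scaling, 1 CPM in 4 libraries, DESeq2 1.42.0 (Wald test), a fit of 2 groups only and leaving out each library. Upstream sequences come from RefSeq (GRCm38.p6), and no genome or protein sequence was used here. Deepest and shallowest library differ in totals by less than 2-fold, and none of the 24 pairs of libraries within a group agreed within sampling noise.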

Additional observations from a re-analysis of the deposited data

Results flagged for a closer look

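Within the groups of 4 libraries, 8 of 152 combinations of member and group held 1 library far from the other three by Dixon's test, and chance gives about 1 in 20. Efr3a was highest in Parental 3, at 122 CPM against 112 to 113, and lowest in ORP5/8 KD 3, at 89.2 against 97.8 to 99.4. Pip5k1a was lowest in Parental 2, at 77.3 CPM against 81.8 to 82.5, and in CDC50A KD 1, at 66.5 against 73.2 to 73.7. Pip4k2b was lowest in CDC50A KD 4, at 140 CPM against 157 to 158, and Inpp5d in the same library, at 288 against 297 to 299. Pikfyve was lowest in Parental 2, at 54.4 CPM against 63.5 to 64.3. Pik3r4 was highest in ORP5/8 KD 3, at 41.7 CPM against 39.7 to 40.0.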

How the results depend on the processing

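None of the 130 called gene values changed direction under any alternative, while 34 of the 101 that were not called, none above 0.10 in size, did under at least 1. Of 18 counts of called genes under 270 settings, 260 stayed within 1.5 times the main count. The exceptions were members lower in ORP5/8 than in CDC50A KD (10; 5 under upper-quartile scaling, 6 to 8 leaving out 1 library, with 6 without ORP5/8 KD 2), members higher in CDC50A than in ATP11A/C KD (2; 1 under upper-quartile scaling and in a fit of the 2 groups alone, 1 to 3 leaving out 1 library, with 1 without ATP11A/C KD 3 or CDC50A KD 1, 2 or 3), other phosphoinositide genes higher in ORP5/8 KD (18; 28 under upper-quartile scaling) and in CDC50A KD (8; 13 in the 2-group fit). The cause was not tested. Of the 231 gene values, upper-quartile scaling ended 13 calls and added 10, and the DESeq2 Wald test ended 0 and added 1. Upper-quartile scaling moved the median of all genes by at most 0.07. The labels do not say whether replicate numbers pair the libraries, and the values do not settle it. Deviations of same-numbered libraries correlated at 0.0068 on average over 24 pairs, from -0.166 to 0.105. Those of other-numbered libraries correlated at -0.0023 on average. Of 16 libraries 8 correlated best with their own number, which is 1 of 4 numbers. With the replicate number as a block, members higher and lower were 8 and 18 in ORP5/8 KD, 5 and 20 in ATP11A/C KD, and 6 and 20 in CDC50A KD. The block ended the calls of Fam126a in ATP11A/C KD (adjusted p = 0.0506), of Pi4ka and Inpp5b in ORP5/8 against ATP11A/C KD (0.0581 and 0.0529) and of Pip4k2c in ORP5/8 against CDC50A KD (0.0554). With at least 114 counts per library for every member, counting error is largest for Mtm1 and Inpp4a, the genes with the fewest counts.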
